A study of Mus musculus with 2 samples.

Results

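Cartilage matrix genes are described here in cells of the mouse eye cup at E17.5. The 8 genes, *Acan*, *Hapln1*, *Matn1*, *Matn3*, *Matn4*, *Cnmd*, *Mia* and *Comp*, were taken by symbol from the 32285 genes of the count files, and each symbol named a single gene there. The data were 2 single-cell RNA libraries, 1 from *Myrf* humWT/humWT mice and 1 from *Myrf* humdG/humdG mice, referred to as humWT and humdG. Both alleles hold the human last exon of *MYRF* where the mouse exon was, so that humWT is a humanized control and not an unmodified mouse, and humdG adds the C-terminal frameshift variant. *Myrf* encodes a membrane-bound transcription factor that the retinal pigment epithelium (RPE) depends on. The eyes of each genotype were pooled into a single library, so there was no replicate, no test between genotypes was made, and the 95% intervals given cover counting error alone. The study's methods give 3 mice per genotype with the cornea kept, while the sample labels give 3 pooled eye cups with the cornea removed, and their protocol text names *Myrf* fl/fl and Rx>cre mice, which are not the genotypes of these libraries.

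Hyaline cartilage is a tissue of scattered chondrocytes in a matrix of collagen fibrils and sulfated proteoglycan. Aggrecan, the product of *Acan*, is the large chondroitin sulfate proteoglycan that draws water into this matrix, and it sits on hyaluronan strands to which link protein, the product of *Hapln1*, fastens it. Matrilins (*Matn1*, *Matn3*, *Matn4*) and cartilage oligomeric matrix protein (*Comp*, of the thrombospondin family) are adaptors that connect collagen fibrils with other matrix proteins. Chondromodulin (*Cnmd*) hinders the growth of blood vessels into cartilage, and *Mia* encodes a small protein secreted by chondrocytes and by melanoma cells. The mouse eye cup has no cartilage of its own, whereas cartilages of the fetal skull lie close to the eye and its muscles.

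The genes are spread over the genome, on chromosomes 7 (*Acan* and *Mia*), 13 (*Hapln1*), 4 (*Matn1*), 12 (*Matn3*), 2 (*Matn4*), 14 (*Cnmd*) and 8 (*Comp*). In the GENCODE M21 annotation of GRCm38, *Acan* spans chr7:79053483-79115099 on the plus strand, *Hapln1* chr13:89539796-89611652 (plus), *Matn1* chr4:130944385-130955475 (plus) and *Matn4* chr2:164389393-164405160 (minus). *Matn3* spans chr12:8947929-8972028 (plus), *Cnmd* chr14:79637690-79662170 (minus), *Mia* chr7:27179742-27181157 (minus) and *Comp* chr8:70373558-70382066 (plus). *Matn4* overlaps *Rbpjl* on the opposite strand. *Mia* overlaps the gene model *Gm21983* on its own strand, which the count files do not list, so reads of the stretch they share could not be told apart.

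Promoter windows from RefSeq, the 250 bases before the annotated start in GRCm38.p6, were matched for 7 of the 8 genes, and *Matn4* had 2 starts. Shown are the windows of the aggrecan and link protein genes, of *Matn4*, the gene with the most UMIs, and of *Matn1*, the gene that differed most between the libraries. They run 5′ to 3′ along the gene's strand, and capitals mark the motifs found. The positions are chr7:79052976-79053225 (plus strand) for *Acan*, chr13:89540386-89540635 (plus) for *Hapln1*, chr2:164405161-164405410 (minus) for *Matn4* and chr4:130944135-130944384 (plus) for *Matn1*. By the GENCODE span given above, the *Hapln1* window lies inside the gene, downstream of the GENCODE start.
Acan: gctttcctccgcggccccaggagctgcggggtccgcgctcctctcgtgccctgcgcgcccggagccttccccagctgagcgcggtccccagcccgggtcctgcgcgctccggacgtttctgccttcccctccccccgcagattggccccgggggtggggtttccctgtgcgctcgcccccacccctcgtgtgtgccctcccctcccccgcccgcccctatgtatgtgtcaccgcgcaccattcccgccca
Hapln1: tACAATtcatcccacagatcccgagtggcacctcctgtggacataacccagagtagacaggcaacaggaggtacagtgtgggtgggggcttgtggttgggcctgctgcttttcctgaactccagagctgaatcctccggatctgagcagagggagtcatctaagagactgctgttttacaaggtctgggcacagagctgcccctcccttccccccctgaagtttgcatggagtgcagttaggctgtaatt
Matn4: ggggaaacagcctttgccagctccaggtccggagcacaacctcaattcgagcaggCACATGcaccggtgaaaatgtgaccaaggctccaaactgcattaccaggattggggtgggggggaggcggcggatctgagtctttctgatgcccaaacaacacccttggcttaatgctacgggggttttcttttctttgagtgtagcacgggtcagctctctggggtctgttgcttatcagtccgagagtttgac
Matn1: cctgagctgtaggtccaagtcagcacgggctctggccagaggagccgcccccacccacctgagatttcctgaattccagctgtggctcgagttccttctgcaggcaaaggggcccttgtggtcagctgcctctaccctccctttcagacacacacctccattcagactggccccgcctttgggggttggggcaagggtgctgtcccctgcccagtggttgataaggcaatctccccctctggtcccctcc
All motifs were searched on both strands, and none of their letters overlapped in these windows. ACAAT, a core bound by SOX proteins, was in the *Hapln1* window and in 27.7% of the 32851 windows of the table. CATGTG, an E-box, was in the first *Matn4* window (as its complement) and in 12.3% of all windows. ACAAAG, also a SOX core, TATAAA, and the MYRF motif as CTGGCAC or CTGGTAC were in none of the 8 windows of these genes, against 16.5%, 12.4%, 4.19% and 1.83% of all windows. The *Acan* window held 74.4% G and C, above 95.4% of all windows, whose median was 52.4%, while the other windows of these genes held between 50.4% and 65.2%.

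After filtering, 16167 humWT cells with a median of 3785 unique molecular identifiers (UMIs, each standing for 1 captured transcript) and 18173 humdG cells with a median of 2625 UMIs were kept, and 86 barcodes occurred in both libraries. Clustering without the 8 genes gave 24 clusters, of which 19 were named as 16 classes from other marker genes. *Myrf* itself was counted at 286 CPM (UMIs of the gene per 1000000 UMIs of the cells; 270 to 302) in humWT and 198 CPM (181 to 216) in humdG RPE-like cells. The 3′ counting reads the end of the transcript. The study calls the 3′ untranslated region of the alleles endogenous in its results and human in its methods. Whether the reads fell on replaced sequence is thus not known, and this value is no check of the genotype. The largest cluster had no class, a low depth, and 21.0% of humWT and 42.0% of humdG cells.

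The cartilage-like class was 1 cluster, in which 12 of 15 cartilage markers were raised, and no other class met the naming rule. Its leading genes were *Wif1*, *Bmper*, *Wwp2*, *Acan*, *Matn4*, *Col2a1*, *Alx1*, *Kif26b*, *Cnmd* and *Hapln1*, so 4 of the 8 genes were among them although none had been used to form the cluster. It held 1318 of the humWT cells (8.15%, with an exact binomial interval of 7.74% to 8.58% after Clopper and Pearson) and 129 of the humdG cells (0.710%, 0.593% to 0.843%). The median depth of the class was alike, 2781.5 and 2810 UMIs, but its spread was not. In humWT 3.49% of the cells had 10000 UMIs or more and 9.33% had fewer than 2000, against 18.6% and 29.5% in humdG. Type II collagen (*Col2a1*), the main fibril of cartilage, stood at 831 CPM in humWT and 1303 CPM in humdG, and *Sox9*, the transcription factor that commits cells to cartilage, at 635 and 1228 CPM. The shares of cells went the other way. *Col2a1* had a UMI in 83.9% of the humWT and 47.3% of the humdG cells of the class, *Col11a1* in 80.1% and 46.5%, and *Sox9* in 79.9% and 70.5%. Of the other cell types the dissection could hold, mesenchyme markers summed to 9047 and 5781 CPM in the class, below their level over the whole libraries (13971 and 6481 CPM). Bone markers summed to 36.1 and 85.1 CPM, against 55.6 and 57.3 CPM over the whole libraries, so they lay above the library level in humdG, and 3 of the 9 were at 0 in both libraries.

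Over all cells kept, 7 of the 8 genes were at least 2-fold lower in humdG, and *Comp* was at least 2-fold higher. With the level in red blood cell-like cells of the same library subtracted, as a measure of free RNA described further on, only *Matn3* stayed at least 2-fold lower and *Comp* at least 2-fold higher. The level subtracted for *Matn3* in humWT rested on 3 UMIs, so its ratio is uncertain. *Acan*, *Matn4*, *Cnmd* and *Hapln1* no longer passed 2-fold, and no humWT level was left for *Matn1* and *Mia*. Before subtraction, 6.19% of the 21026 genes with at least 20 UMIs were at least 2-fold lower and 4.43% at least 2-fold higher. The shares of all genes after subtraction were not computed. Red blood cell-like cells had no UMI of *Comp* in either library, so subtraction could not change its call. The median log2 ratio of humdG to humWT before subtraction was -2.11 for the 8 genes and 0.05 for all genes tested. With 1 library per genotype, this is a difference between 2 libraries, and fewer cartilage cells cannot be told apart in it from less RNA of these genes in each cell.

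*Matn4* had 6329 UMIs in humWT and 1891 in humdG, a log2 ratio of -1.59 (-1.66 to -1.51). *Acan*, with 2766 and 813 UMIs, had a log2 ratio of -1.61 (-1.73 to -1.50). Both were about 3 times lower in humdG, the smallest differences among the 7 lower genes. The vessel inhibitor gene *Cnmd*, with 2583 and 464 UMIs, was 5.00 times lower, but its humWT level of 21.5 CPM lay inside the interval of the red blood cell-like cells, 14.1 to 25.9 CPM. The link protein gene *Hapln1* had 2353 and 463 UMIs and was 4.57 times lower. The secreted factor gene *Mia* had 1628 and 360 UMIs and was 4.06 times lower, but its humWT level of 13.6 CPM lay below the 16.3 CPM of the red blood cell-like cells. The matrilins *Matn3* and *Matn1* had the largest differences. The log2 ratio of *Matn3*, from 291 and 37 UMIs, was -2.82 (-3.36 to -2.32). That of *Matn1*, from 225 and 2 UMIs, was -6.66 (-9.71 to -4.79), so that the gene was almost uncounted in humdG. The humWT level of *Matn1*, 1.88 CPM, lay below the 3.44 CPM of the red blood cell-like cells, which rested on 8 UMIs. *Comp*, which connects fibrils in cartilage and tendon, had only 28 UMIs in humWT and 54 in humdG, a log2 ratio of 1.10 (0.42 to 1.81).

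Within the cartilage-like class the genes did not share 1 direction. Of the 7 with at least 20 UMIs there, *Matn1* and *Matn3* were at least 2-fold lower in humdG and none was at least 2-fold higher, where 3.86% of the 12433 genes tested were lower and 16.3% higher. The median over all genes tested was 0.46 on the log2 scale in the class, so ratios are also given relative to it, and the median of the 7 genes was -0.09.

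In the aggregate of aggrecan and link protein, *Acan* stood at 182 CPM (170 to 194) in humWT and 294 CPM (269 to 321) in humdG, a log2 ratio of 0.70 (0.53 to 0.86), or 0.24 relative to the median gene. *Hapln1* stood at 143 CPM (132 to 154) and 156 CPM (138 to 176), a log2 ratio of 0.13 (-0.08 to 0.34), or -0.33 relative to the median gene. The intervals of *Hapln1* overlapped and those of *Acan* did not.

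Of the adaptor proteins, *Matn4* was the gene with the highest level, at 322 CPM (305 to 338) in humWT and 555 CPM (520 to 591) in humdG, a log2 ratio of 0.79 (0.67 to 0.91), or 0.33 relative to the median gene. *Matn3* stood at 14.1 CPM (10.9 to 18.0) and 4.05 CPM (1.63 to 8.35), a log2 ratio of -1.80 (-3.17 to -0.68), or -2.26 relative to the median gene. *Matn1* had 49 UMIs in humWT, or 10.6 CPM (7.88 to 14.1), and none in humdG. By the interval of the ratio it was at least 4.80-fold lower. In cells of 5000 UMIs or more, from which most of the humdG sum comes, *Matn1* had 5 and 0 UMIs. The interval of its log2 ratio there reached up to -0.27. By CPM the 3 matrilins thus stood in the order *Matn4*, *Matn3*, *Matn1*, where the intervals of the last 2 overlapped in both libraries. *Comp* had 0 UMIs in humWT and 1 in humdG, which was too few for a ratio.

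*Cnmd* stood at 165 CPM (153 to 177) in humWT and 155 CPM (137 to 174) in humdG, a log2 ratio of -0.09 (-0.30 to 0.11). *Mia* stood at 130 CPM (120 to 141) and 86.3 CPM (73.0 to 101), a log2 ratio of -0.59 (-0.86 to -0.33), or -1.05 relative to the median gene. The interval of *Cnmd* held 0 and that of *Mia* did not. Relative to the median gene *Cnmd* was at -0.55 (-0.75 to -0.34), an interval that did not hold 0. By that measure *Mia* was at least 2-fold lower besides *Matn1* and *Matn3*, but its interval (-1.32 to -0.79) held ratios short of 2-fold. The share of all genes past 2-fold by that measure is not given. In humWT the order of CPM was *Matn4*, *Acan*, *Cnmd*, *Hapln1* and *Mia*, where *Acan* and *Cnmd*, *Cnmd* and *Hapln1*, and *Hapln1* and *Mia* overlapped in their intervals. Counting at the 3′ end does not scale with the length of the mature transcript, but whether reads in introns were counted is not given in the sources used here. *Acan* and *Hapln1* have long introns and *Mia* is short, so the order holds for CPM as counted and may not be that of transcripts.

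**Figure D1:**
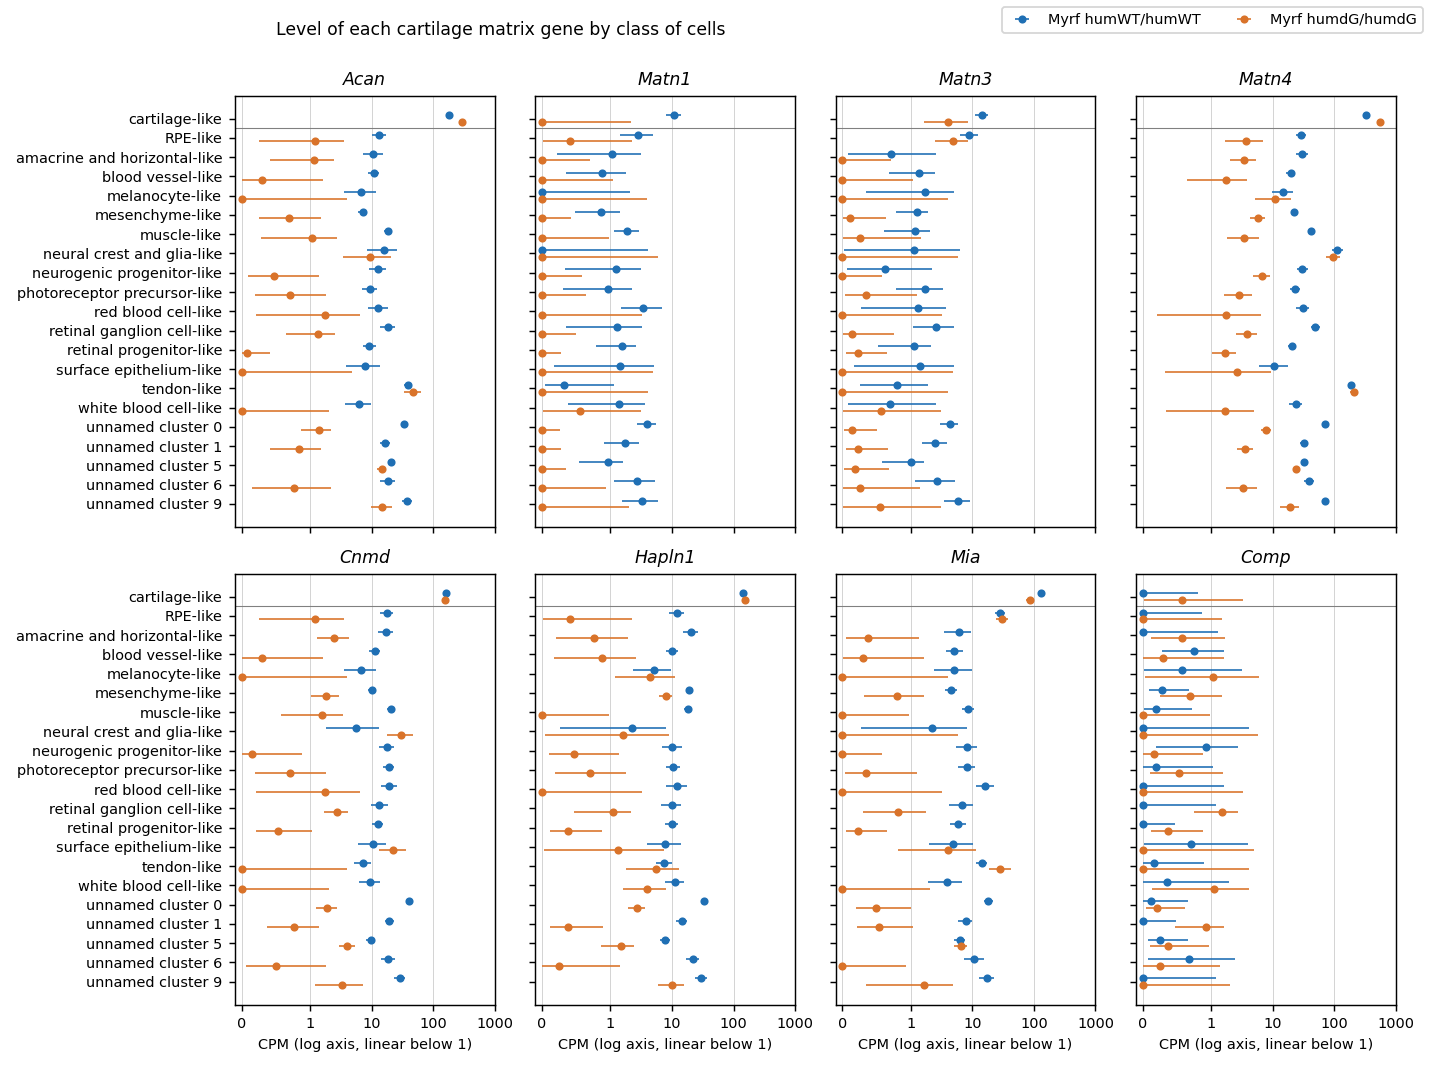
Level of each gene (x axis, CPM on a log axis that is linear below 1) in each class of cells (rows), in humWT (blue) and humdG (orange), with 95% Poisson intervals for counting error as bars. The cartilage-like class has the highest level of *Acan*, *Matn4*, *Cnmd*, *Hapln1* and *Mia* in both libraries, and in most other classes the humWT points lie to the right of the humdG points.

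The sums over the humdG class rested on few cells. Its 24 cells with 10000 UMIs or more held 1437367 of the 1726372 UMIs of the class, and the 8 genes together stood at 1466 CPM in them. The 64 humdG cells with 2000 to 5000 UMIs had the 8 genes at 191 CPM and the 38 cells below 2000 UMIs at 109 CPM. In humWT the order was the other way round. Its 1099 cells with 2000 to 5000 UMIs had the 8 genes at 1069 CPM, and its 46 cells with 10000 UMIs or more at 316 CPM. A single humdG cell held 106 of the 508 *Acan* UMIs, and single cells held 222 of the 958 *Matn4* UMIs and 57 of the 270 *Hapln1* UMIs.

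The direction between libraries therefore turned with depth for the genes of the aggregate. At 2000 to 5000 UMIs, *Acan* stood at 203 CPM in humWT and 44.1 CPM in humdG, *Hapln1* at 161 and 39.2 CPM, and *Matn4* at 341 and 63.6 CPM. At 10000 UMIs or more, *Acan* stood at 51.8 and 345 CPM, *Hapln1* at 39.2 and 179 CPM, and *Matn4* at 154 and 653 CPM. *Cnmd* and *Mia* turned likewise, from 187 and 34.3 CPM to 40.4 and 181 CPM for *Cnmd*, and from 147 and 4.90 CPM to 25.3 and 103 CPM for *Mia*. The humdG levels at 2000 to 5000 UMIs rested on 13 UMIs of *Matn4*, 9 of *Acan*, 8 of *Hapln1*, 7 of *Cnmd* and 1 of *Mia*. *Matn3* turned as well, from 17.4 CPM and none at 2000 to 5000 UMIs to 1.26 and 4.87 CPM at 10000 UMIs or more, but on 1 humWT and 7 humdG UMIs in the deep cells. *Matn1* stayed at 0 in humdG at every depth. With each cell of the class weighted equally, *Acan* averaged 202 CPM in humWT and 62.4 CPM in humdG and *Matn4* 352 and 113 CPM, and 7 of 7 genes were at least 2-fold lower. The share of all genes past 2-fold was not computed with this weighting, so whether that count is unusual is not known. Both weightings describe the same cells, so a direction for *Acan*, *Matn3*, *Matn4*, *Cnmd*, *Hapln1* and *Mia* within the class depends on how its cells are weighted. Clustering of the merged libraries without integration took only 40 humdG cells as cartilage-like, 37 of them among the 129, with a median of 13918.5 UMIs, and 1512 humWT cells with a median of 2739 UMIs.

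**Figure D2:**
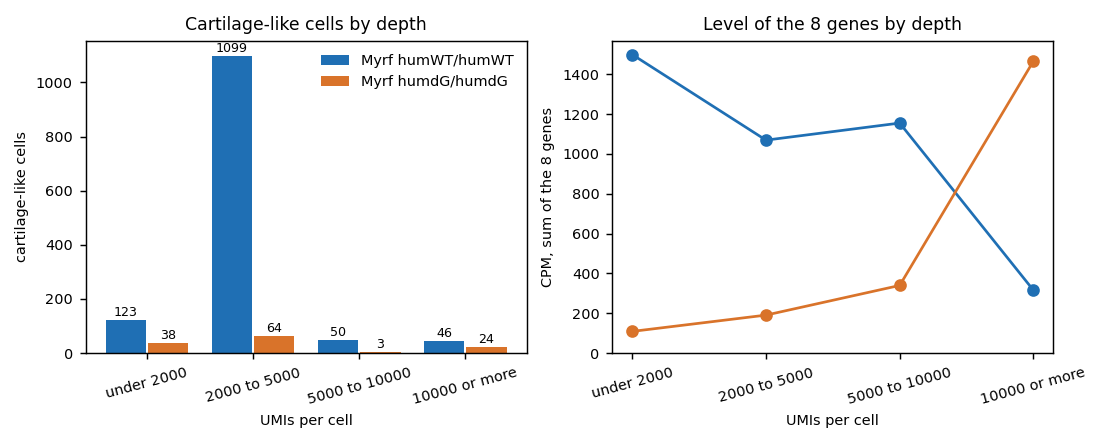
Left, number of cartilage-like cells (y axis) by UMIs per cell (x axis). Right, summed level of the 8 genes (y axis, CPM) in the same cells, humWT in blue and humdG in orange. The humWT level falls to 316 CPM in the deepest cells while the humdG level is 1466 CPM there and 191 CPM at 2000 to 5000 UMIs, and the humdG point at 5000 to 10000 UMIs comes from 3 cells.

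No UMI of any of the 8 genes was found in 177 humWT cells of the class (13.4%) and in 76 humdG cells (58.9%). *Matn4* had a UMI in 57.4% of the humWT cells (54.6% to 60.0%) and in 25.6% of the humdG cells (18.3% to 34.0%), against 12.0% and 0.791% of the red blood cell-like cells. Red blood cells do not make these genes, and their median depths of 3946 and 4129 UMIs were above those of the cartilage-like class. After every cell was thinned to 1000 UMIs, the shares for *Matn4* were 30.1% and 7.81%. These shares go against the CPM of *Matn4*, so no order of the libraries is read from them. In cells with 5000 UMIs or more, *Matn4* and *Hapln1* were found more often in cells with *Acan* than in cells without it. Among 45 humWT cells with *Acan*, 80.0% also had *Matn4* and 60.0% *Hapln1*, against 43.1% and 19.6% of the 51 cells without it. In the 15 such humdG cells with *Acan* the shares were 93.3% for each, and in the 12 cells without it 58.3% and 33.3%.

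Most UMIs of these genes lay outside the cartilage-like cells of humWT. The class held 27.4% (26.7% to 28.1%) of the 16203 UMIs of the 8 genes in humWT and 52.9% (51.3% to 54.4%) of the 4084 in humdG, while it held 3.84% and 1.60% of the UMIs of all genes. For *Acan* the shares were 30.2% and 62.5%, for *Matn4* 23.4% and 50.7%, for *Cnmd* 29.3% and 57.5%, and for *Hapln1* 28.0% and 58.3%. *Mia* differed less, with 36.7% (34.4% to 39.1%) and 41.4% (36.3% to 46.7%). *Matn3* had 22.3% and 18.9% of its UMIs in the class, with intervals that overlapped widely.

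**Figure D3:**
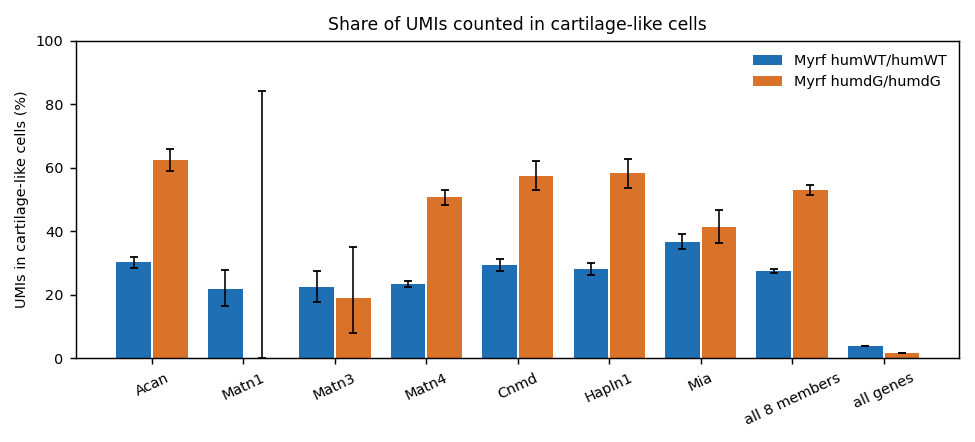
Percent of each gene's UMIs (y axis) that were counted in cartilage-like cells of humWT (blue) and humdG (orange), with 95% Clopper-Pearson intervals. The humdG bars stand above the humWT bars for *Acan*, *Matn4*, *Cnmd* and *Hapln1*, and the bars for all genes are at 3.84% and 1.60%. *Comp*, with 0 and 1 UMI in these cells, is not drawn.

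Red blood cell-like cells served as the measure of free RNA, transcripts released into the suspension that enter any droplet. In humWT their level was above the lowest among the classes for every gene but *Comp*. It was 12.9 against 6.30 CPM for *Acan*, 31.0 against 10.6 CPM for *Matn4* and 12.0 against 2.23 CPM for *Hapln1*, the last from 2 UMIs. *Mia*, at 16.3 CPM in them, was lower in mesenchyme-like cells, at 4.53 CPM, and in blood vessel-like cells, at 5.11 CPM. Subtraction over all cells left no humWT level of *Mia*, although cartilage-like cells held it at 130 CPM. Levels called above that of red blood cell-like cells are thus relative to these cells alone. In humWT they held *Matn4* at 31.0 CPM (24.2 to 39.0), *Cnmd* at 19.4 CPM, *Mia* at 16.3 CPM, *Acan* at 12.9 CPM (8.71 to 18.4) and *Hapln1* at 12.0 CPM. In humdG they held *Acan*, *Matn4* and *Cnmd* at 1.77 CPM each, from 2 UMIs each, and no UMI of the other 5 genes. The log2 ratio in these cells, which are not known to make either product, was thus -2.87 (-5.98 to -0.89) for *Acan* and -4.13 (-7.20 to -2.22) for *Matn4*. For *Hapln1* and *Mia*, with none in humdG, the difference by the interval of the ratio was at least 3.45-fold and at least 4.77-fold.

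Outside the cartilage-like class as a whole, 7 of the 8 genes were at least 2-fold lower in humdG and *Comp* at least 2-fold higher, where 6.63% of 20976 genes were lower and 4.24% higher. *Acan* stood in this sum at 16.7 CPM in humWT and 2.88 CPM in humdG, a log2 ratio of -2.54 (-2.72 to -2.37), and *Hapln1* at 14.7 and 1.82 CPM, a ratio of -3.01 (-3.24 to -2.80). *Cnmd* stood at 15.8 and 1.86 CPM and *Matn4* at 42.0 and 8.80 CPM. Of the 21 classes and unnamed clusters, the interval of the ratio lay below 0 in 18 for *Acan* and *Cnmd*, in 16 for *Matn4*, *Hapln1* and *Mia*, in 12 for *Matn1* and in 11 for *Matn3*. The red blood cell-like level, the number of cartilage-like cells and these levels were all lower in humdG, and the part of free RNA in the differences was measured only by subtraction. With the red blood cell-like level of the same library taken off, the log2 ratios over all cells became -0.82 for *Acan*, -0.47 for *Matn4*, -0.82 for *Hapln1*, -1.73 for *Matn3* and 0.22 for *Cnmd*, and no level above 0 was left for *Matn1* and *Mia* in humWT. These ratios have no interval, the levels subtracted in humdG rest on 2 UMIs or none, and the direction of *Cnmd* after subtraction is undetermined. For *Matn3* the humWT level subtracted was 1.29 CPM, from 3 UMIs, out of 2.43 CPM over all cells, so its ratio is uncertain too. Of the 6 genes left, *Matn3* was then at least 2-fold lower and *Comp* at least 2-fold higher. The share of all genes past 2-fold after subtraction was not computed.

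**Figure D4:**
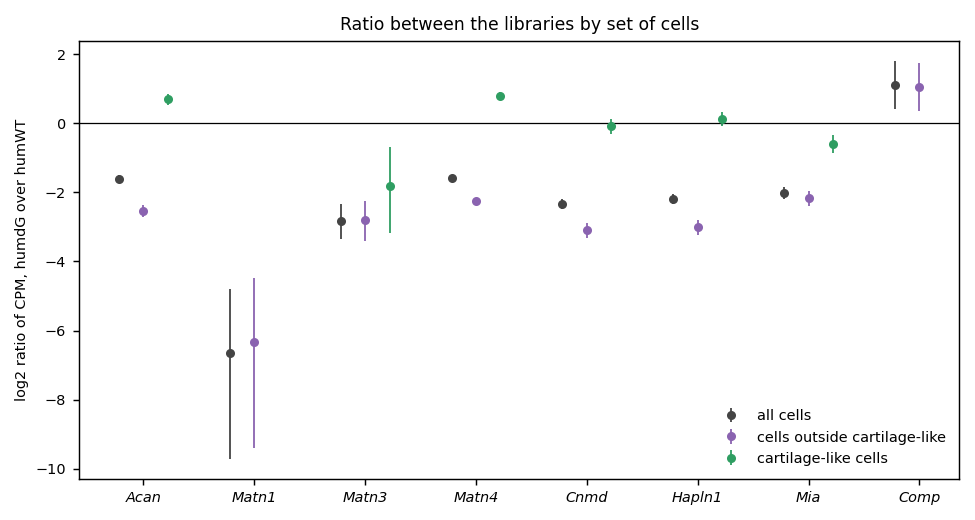
Log2 ratio of CPM in humdG over humWT (y axis) for each gene (x axis), over all cells (black), cells outside the cartilage-like class (purple) and cartilage-like cells (green), with 95% intervals for counting error. *Acan* and *Matn4* are above 0 in cartilage-like cells and below 0 in both other sets, and *Comp* is the only gene above 0 over all cells. *Matn1* has no green point because it had no UMI in humdG there, and *Comp* none because it had 1 UMI in all.

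The mixture of the genes differed between classes within a library. In humWT, 1.77 *Matn4* UMIs were counted per *Acan* UMI in cartilage-like cells and 2.40 in red blood cell-like cells. The number was 4.89 in tendon-like cells and 7.21 in neural crest and glia-like cells. *Cnmd* also rose between the first 2, from 0.91 UMIs per *Acan* UMI in cartilage-like to 1.5 in red blood cell-like cells. Unlike *Matn4* it was low in tendon-like cells, at 0.19, and in neural crest and glia-like cells, at 0.36. *Hapln1* had 0.79 and 0.93 UMIs per *Acan* UMI in the first pair and 2.64 in mesenchyme-like cells. The red blood cell-like proportions rest on 30 *Acan* UMIs, and the source of the differences in proportion was not tested.

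Tendon-like cells, named from *Scx*, *Tnmd*, *Mkx*, *Fmod*, *Thbs4* and *Kera*, had *Matn4* and *Acan* above the red blood cell-like level in both libraries. *Matn4* stood there at 189 CPM (179 to 200) in humWT and 207 CPM (179 to 239) in humdG, a log2 ratio of 0.13 (-0.10 to 0.36). *Acan* stood at 38.7 CPM (34.0 to 43.9) and 47.2 CPM (34.1 to 63.5). As counted, neither gene differed between the libraries in these cells beyond counting error, over 235 and 57 cells. No free RNA was taken off these levels or those of the classes below. The red blood cell-like level was 12.9 and 1.77 CPM for *Acan* and 31.0 and 1.77 CPM for *Matn4*. The ratios within these classes were not computed after subtraction. *Mia* stood at 14.1 CPM (11.3 to 17.4) and 28.5 CPM (18.6 to 41.8), a log2 ratio of 1.01 (0.32 to 1.66), so it was higher in humdG in this class. Its level was above that of red blood cell-like cells in humdG but not in humWT. *Cnmd* was at 7.23 CPM in humWT and had no UMI in humdG, while its relative *Tnmd*, the tenomodulin gene of tendon, was a marker of the class.

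Neural crest and glia-like cells had *Matn4* at 113 CPM (91.8 to 137) in humWT and 96.3 CPM (73.7 to 124) in humdG, in 33 of 49 and 19 of 39 cells. Their intervals overlapped, and in both libraries they lay above the red blood cell-like level. *Cnmd* in these cells was at 5.58 CPM (1.81 to 13.0) and 29.99 CPM (18.1 to 46.8), from 5 and 19 UMIs, so it was higher in humdG in this class.

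RPE-like cells, the layer in which *Myrf* acts, had *Mia* and *Matn3* above the red blood cell-like level in both libraries. *Mia* stood at 28.2 CPM (23.4 to 33.7) in humWT and 30.5 CPM (24.0 to 38.2) in humdG, a log2 ratio of 0.11 (-0.32 to 0.54), with a UMI in 73 of 538 and 41 of 397 cells. The red blood cell-like level of *Mia* was 16.3 CPM in humWT, with no UMI in humdG, so by that measure the 2 levels hold unequal free RNA. *Matn3* stood at 8.87 CPM (6.27 to 12.2) and 4.88 CPM (2.52 to 8.52), from 38 and 12 UMIs. *Matn3* in humdG was thus as high in RPE-like as in cartilage-like cells, where its level was 4.05 CPM (1.63 to 8.35). The other genes of the RPE-like class were not above the red blood cell-like level, with *Acan* at 13.3 and 1.22 CPM.

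Mesenchyme-like cells, led by *Pi16* and *Dlk1*, had *Hapln1* at 18.9 CPM (16.9 to 21.1) in humWT and 7.92 CPM (6.16 to 10.0) in humdG, above the red blood cell-like level in both. A deep unnamed cluster led by *Spp1*, *Mgp* and *Rgs5*, with markers of mesenchyme and of mural cells, had *Acan* at 20.4 CPM (18.2 to 22.7) and 14.6 CPM (12.4 to 17.04). A further unnamed cluster led by *Col12a1*, *Col6a3* and *Postn* had *Acan* at 37.7 and 14.8 CPM, *Matn4* at 71.4 and 19.2 CPM and *Hapln1* at 29.8 and 9.86 CPM. In the largest unnamed cluster the levels were far apart, with *Acan* at 33.6 CPM in humWT and 1.41 CPM in humdG and *Cnmd* at 40.2 and 1.91 CPM. *Cnmd* in surface epithelium-like cells was at 10.6 CPM (5.91 to 17.4) and 22.5 CPM (13.1 to 36.0), from 15 and 17 UMIs, and 7 of the 17 were in a single cell.

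*Comp* did not follow the other genes. Its highest levels were 0.925 CPM in neurogenic progenitor-like cells of humWT and 1.497 CPM (0.747 to 2.68) in retinal ganglion cell-like cells of humdG, from 11 UMIs in 11 cells. In no class was it above the red blood cell-like cells, which had none. In the tendon-like cells of this stage it had 1 UMI in humWT and none in humdG.

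Among the genes of the wider cartilage programme, the cartilage collagens had 8 of 8 members tested in the cartilage-like class, of which 0 were at least 2-fold lower in humdG and 2 at least 2-fold higher, with a median log2 ratio of 0.54. Over all genes tested in the class 3.86% were lower and 16.3% higher with a median of 0.46, and the lists that follow are to be read against the same values. The 2 were *Col27a1* at 85.2 CPM in humWT and 254 CPM in humdG, and *Col10a1*, the collagen of hypertrophic cartilage, with only 15 UMIs in each. *Col11a1*, of the thin fibrils that carry type II collagen, stood at 569 and 538 CPM, a log2 ratio of -0.08 (-0.19 to 0.03), and *Col11a2* at 54.1 and 55.6 CPM.

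Regulators of cartilage had 7 of 10 members tested, of which 4 were higher and 1 was lower (16.3% and 3.86% of all genes), with a median of 1.40. *Wwp2*, a ubiquitin ligase gene whose product binds SOX9, stood at 296 and 1459 CPM, a log2 ratio of 2.30 (2.21 to 2.40), and *Sox6*, a partner of *Sox9*, at 83.5 and 312 CPM. *Runx3* had 28 UMIs in humWT and 1 in humdG, and *Trps1* stood at 91.7 and 134 CPM. Growth plate signalling genes had 8 of 10 members tested and none past 2-fold in either direction, with a median of 0.15. *Chrdl1*, a BMP antagonist gene, stood at 8.69 and 15.1 CPM, *Fgfr3*, a receptor that slows chondrocyte division, at 50.9 and 86.3 CPM, *Gli1*, a hedgehog target, at 10.9 and 8.11 CPM, and *Pth1r*, the parathyroid hormone receptor gene, at 29.1 and 27.2 CPM.

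Genes for sulfation and glycosaminoglycan synthesis, which build the side chains of aggrecan, had 9 of 10 members tested, 3 higher and 0 lower (16.3% and 3.86% of all genes) and a median of 0.50. The chondroitin sulfotransferase gene *Chst11* stood at 53.5 and 211 CPM and the xylosyltransferase gene *Xylt1*, which starts the chains, at 70.2 and 229 CPM. *Chpf* at 25.2 and 20.3 CPM and *Chst3* at 5.22 and 4.63 CPM had the lowest ratios of this list. Other cartilage matrix genes had 11 of 14 members tested, 5 lower and 0 higher (3.86% and 16.3% of all genes) and a median of -0.93. *Ucma*, made by chondrocytes of the upper growth plate, had 34 UMIs in humWT and none in humdG, and *Cilp* had 38 and none. The intervals of their log2 ratios reached up to -1.71 and -1.88. *Prelp* stood at 10.2 and 19.7 CPM and *Epyc* at 15.6 and 18.5 CPM. Of these 2 lists, the makers of the side chains lay near the median gene, at 0.50 against 0.46, and the other matrix proteins below it, at -0.93. The ratios of the lists are not given by depth.

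The enzymes that cut aggrecan and their inhibitors had 6 of 8 members tested, 2 lower and 0 higher (3.86% and 16.3% of all genes) and a median of -0.59. *Adamts15* stood at 11.1 and 4.05 CPM and *Adamts1* at 16.7 and 8.11 CPM, while *Adamts4* stood at 5.22 and 5.79 CPM and the inhibitor gene *Timp3* at 51.3 and 48.1 CPM. Relatives of the 8 genes had 12 of 15 members tested, 4 lower and 1 higher (3.86% and 16.3% of all genes) and a median of -0.24. Versican (*Vcan*), the aggrecan relative of soft tissue, stood at 249 and 855 CPM, a log2 ratio of 1.78 (1.67 to 1.89), and *Otor*, the nearest relative of *Mia*, at 4.56 and 6.95 CPM. *Tnmd*, the relative of *Cnmd*, stood at 10.2 and 2.32 CPM and *Thbs1*, of the family of *Comp*, at 44.3 and 15.1 CPM. The 24 deep cells held 97.5% of the humdG UMIs of the 8 genes in the class and between 85.3% and 96.0% of those of these lists, while the 46 deep humWT cells held 5.63% and between 6.29% and 22.7%.

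Likeness to the 8 genes was measured as Pearson's r of log2(CPM + 10) over 48 points, 24 clusters in each library, among 15886 genes with at least 200 UMIs. The points share libraries and their depth, so r is a description. Most like the mean profile of the 8 genes were *Wif1* (r = 0.948), a secreted Wnt inhibitor gene, *Susd5* (0.900), *Cytl1* (0.894) and *Col2a1* (0.882). They were followed by *Alx1* (0.867), *Rpl39l* (0.852), *Shox2* (0.850), *Bmp5* (0.849), *Dbx2* (0.848) and *Bmper* (0.845). Within the 8 genes, *Acan* and *Matn4* were among each other's nearest (0.924) and *Acan* was the gene nearest to *Mia* (0.859). *Hapln1* was nearest to *Susd5* (0.924) and *Cnmd* to *Scin* (0.899). *Matn1* was nearest to *Snorc* (0.918), a cartilage proteoglycan gene, and *Matn3* to *Matn1* (0.806), while the best of *Comp* was *Map4k1* at only 0.599.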

How the data were processed

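Single-cell RNA was counted in 2 pooled libraries by 10x 3′ chemistry. Per the file headers, the authors' UMI count matrices came from Cell Ranger 7.1.0, and they were deposited without normalization for barcodes called as cells. The build is mm10 per the submitters' processing notes, and whether reads in introns were counted is not given in the sources used here. Totals were 129135207 UMIs over 17421 barcodes (humWT) and 114319529 UMIs over 19565 barcodes (humdG). In all, 32158 of 32285 gene identifiers were found in GENCODE M21.

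A barcode was used if over 500 genes were detected in it and mitochondrial UMIs made up less than 15%. Scrublet (scanpy 1.11.5, 30 principal components) marked 1 and 0 doublets by itself, so the highest 5% of scores were removed instead, 850 and 956 cells, which is no estimate of the doublet number. Cells were integrated and clustered in Seurat 5.3.0 (R 4.3.3) on 2000 variable genes less the 8 cartilage matrix genes, with 20 dimensions and a resolution of 0.5. The earlier libraries of the study were not analysed here. A class name needed at least 3 of its markers raised 2-fold with 10 CPM added, found in 10% of the cells, at least 1 in 3 of the list, and 1 among the 20 leading genes. Where the 10 leading genes held more markers of a different class, the cluster stayed unnamed. This wording of the rule was settled after the clusters were seen.

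Sums of UMIs per class were scaled to CPM. Exact Poisson, Clopper-Pearson and conditional binomial intervals at 95% were computed in Python 3.11.15 with scipy 1.17.1, and figures were drawn with matplotlib 3.10.9. Where a count was 0, the finite end of the exact interval of the ratio was given as its bound. A gene counted as past the threshold at a ratio of 2-fold among genes with at least 20 UMIs, with 0.5 UMIs added for counts and medians over genes. A class was above the red blood cell-like level when the interval of its ratio to those cells lay above 1. The ratio and its interval were checked on simulated data. Named are the 8 genes, the 2 highest and 2 lowest ratios of each list in the cartilage-like class, relatives of the 8 genes, and the genes most like them. These genes, lists and markers were chosen with earlier results of these data known.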

Additional observations from a re-analysis of the deposited data

Results flagged for a closer look

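*Acan* and *Matn4* lay on opposite sides of 0 in the cartilage-like cells and in the other cells. The log2 ratio of *Acan*, humdG over humWT, was 0.70 in cartilage-like cells and -2.54 in all other cells. For *Matn4* the ratios were 0.79 and -2.26. With 1 library per genotype, the difference between these sets of cells was not tested. The positive ratios turned negative where only cartilage-like cells with 2000 to 5000 UMIs were summed.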

How the results depend on the processing

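With the level in red blood cell-like cells subtracted, 2 of 6 genes in place of 8 of 8 were past 2-fold over all cells. In cartilage-like cells 1 of 6 was past it in place of 2 of 7. *Matn1* dropped out there because it had no UMI in humdG and so no ratio, not because its difference was gone. The log2 ratio of *Cnmd* over all cells became 0.22, a sign that the counts leave undetermined. In humWT the level subtracted was above the lowest among the classes for every gene but *Comp*, so these counts hold for this subtraction alone. The share of all genes past 2-fold after it was not computed. Every other alternative over all cells left 7 genes at least 2-fold lower. Among all genes with at least 1 UMI, 12.5% were lower and 8.76% higher, and among those with at least 100 UMIs 4.94% and 3.35%. For the other alternatives over all cells the share of all genes was not computed. In cartilage-like cells, 0 of 5 genes were past 2-fold among those with at least 100 UMIs, where 2.07% of all genes were lower and 12.8% higher. Settings chosen after seeing the data moved this count most: 7 of 7 genes were lower in cells of 2000 to 5000 UMIs, 5 of 5 were higher in cells of at least 10000 UMIs, and 7 of 7 were lower with each cell weighted equally. The share of all genes past 2-fold is not given for these settings. The median log2 ratio over all genes tested was 0.24 in the shallower and 0.21 in the deeper of the sets by depth. The ratios of *Acan* and *Matn4* became -2.21 and -2.42 in the first of these sets and -1.69 and -1.64 with equal weights, while those of *Matn3* and *Mia* became 1.95 (1 and 7 UMIs) and 2.03 in the deep cells. A gate on cartilage collagens and *Sox9* turned *Acan* and *Matn4* to -0.23 and -0.38. It took 3480 humWT and 970 humdG cells, with median depths of 7480 and 13015 UMIs. Only 841 and 36 of them were in the cartilage-like class, so its ratios and its shares below describe a mostly different set of cells. The cause of the reversals in this paragraph was not tested.

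The cartilage-like share of the 8 genes' UMIs in humWT was 25.6% without doublet removal, 28.5% with the 8 genes among the clustering genes, 29.7% in merged libraries, 25.7% under 10% mitochondrial UMIs, 52.6% by the gate and 30.7% without the largest unnamed cluster. In humdG it was 55.8% above 1000 genes per cell, 69.2% by the gate and 55.7% without that cluster. The cartilage-like share of cells in humWT was 7.51% without doublet removal, 9.35% merged, 21.5% by the gate and 10.3% without that cluster. In humdG it was 0.220% merged, 0.854% above 1000 genes, 5.34% by the gate and 1.22% without that cluster. Both cell shares stayed higher in humWT and both UMI shares higher in humdG under these alternatives.

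No paired analysis was possible because each genotype has 1 library. Depth limits *Matn1*, *Matn3* and *Comp* most, and embryos and preparations cannot be told apart from genotype.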
